A study of Gallus gallus with 6 samples.

Results

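The chick gene cNFI-A (ENSGALG00000010924), which codes for nuclear factor I A (NFIA), carried 34 of the 7621 regions of the genome whose CG methylation differed between lens epithelial cells and lens fiber cells. These differentially methylated regions (DMRs) are all those that the authors' table lists under the symbol cNFI-A. Their direction and size come from the contrast that made the authors list them, so levels and changes are described here and not tested. Whole genome bisulfite sequencing was performed on White Leghorn chick lenses at embryonic day 13, microdissected into the anterior epithelial layer and the fiber cell mass. There were 3 biological replicates of epithelial cells and 3 of fiber cells, each pooled from 25 lenses, and neither cell type received a treatment that the labels name. Neither fraction was split by position within the lens, with equatorial cells counted as epithelium and the outermost fibers as fiber cells, so each level is an average over cells at several stages. Cell identity was not checked here against marker genes, since the table holds methylation only. The paper also sequenced RNA of microdissected epithelial and fiber cells. Crystallin and beaded filament genes were among the genes it lists as differing most.

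For each DMR the table gives the share of DNA molecules methylated at CG sites (the mCG level) as 1 mean for epithelial cells and 1 for fiber cells, pooled over replicates by the authors. Levels of single replicates were not analysed here and read depth per DMR is unknown, so no spread over replicates was computed for a change. A change is the fiber level minus the epithelial level in percentage points, called a gain where positive and a loss where negative. The standard error (SE) given with a change is an approximation for a single CG site, the change divided by the authors' test statistic per listed site. According to the paper, the model behind that statistic considers read depth and the variance among replicates. As DMRs were selected for large statistics and their sites smoothed, the SE may understate the uncertainty and does not describe a whole DMR. DMRs are numbered 1 to 34 in the order of their position on chromosome 8, in coordinates of the galGal6 assembly.

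NFIA belongs to the nuclear factor I family of transcription factors, which bind DNA as dimers at a palindromic site and can activate or repress their targets. In the developing chick and mouse spinal cord NFIA starts the formation of glial cells, acting together with SOX9, and in mouse the gene is needed for the corpus callosum. DNA methylation within a gene's introns often marks the state of enhancers, which tend to lose methylation where they are in use, whereas CpG islands, short stretches rich in CG sites, are mostly unmethylated.

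Stretches of known sequence inside the DMRs are shown because most place CG sites, the letters whose methylation was measured, within recognisable motifs. They come from the study's supplementary list of motif matches, which was held here only in part. By its construction the list takes gains from genes more expressed in epithelial cells and losses from genes more expressed in fiber cells, so matches of 1 gene fall in DMRs of 1 direction. Those for cNFI-A lie in gains, and nothing is read from the lack of matches in losses. Of 41 matches found there for cNFI-A, 32 were runs of a single base. Of the 9 others, 4 are printed, namely those with a CG (the longest where matches overlapped) and the match of the TATA-binding protein TBP. The TBP match holds no CG. Capitals mark CG, or the TATA box in the case of TBP, and each is written 5′ to 3′ on the strand given, in galGal6 coordinates.
SP2 match in DMR 1, chr8:27398044-27398058, minus strand: ctccCGccctctCGc
MXI1 match in DMR 1, chr8:27398203-27398215, plus strand: gccccaCGtgCGg
TBP match in DMR 11, chr8:27430457-27430471, plus strand: gTATAAAagggcaca
Hes1 match in DMR 26, chr8:27498822-27498831, plus strand: ggcaCGCGac
The MXI1 match contains the E-box hexamer cacgtg, which MYC family proteins bind and whose central letters are a CG. A match says only that these letters are present. No frequency of these motifs in other regions was computed, because no sequence of the galGal6 assembly was used here.

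Methylation of cNFI-A was mostly higher in fiber cells, with 31 gains and 3 losses. Gains made up 91.2% of its DMRs, beside 86.6% of all DMRs in the table, and losses 8.82%, beside 13.4%. The mean change was 19.4 percentage points (SD over the 34 DMRs 15.3), beside means of 15.3 over all DMRs and 16.2 over the 348 DMRs of chromosome 8. The median change was 20.2, beside medians of 19.9 over all DMRs and 20.6 over those of chromosome 8. Epithelial levels ran from 4.96% to 77.3% with a median of 35.1%. Fiber levels ran from 5.88% to 89.5% with a median of 61.2%. The SE at a single site lay between 1.70 and 4.80 percentage points, and the lowest absolute statistic per site was 4.56.

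**Figure D1:**
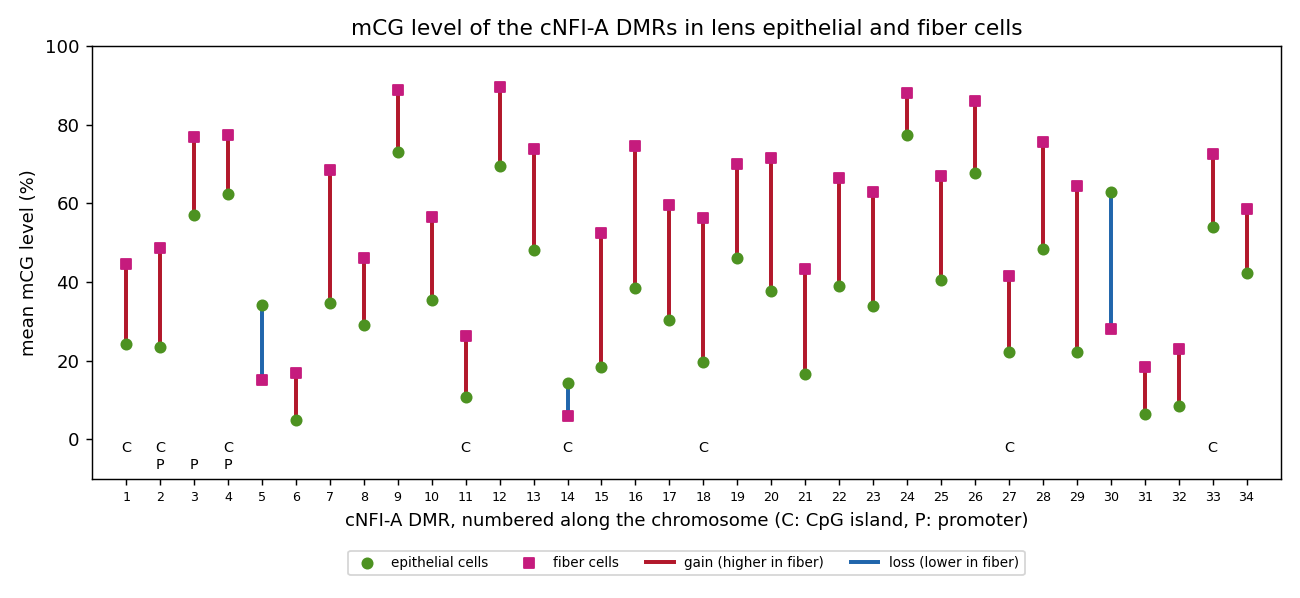
Mean mCG level (%) of each of the 34 cNFI-A DMRs, numbered along the chromosome, in epithelial cells (circles) and fiber cells (squares), each an authors' mean over 3 replicates. Red bars join the levels of the 31 gains and blue bars those of the 3 losses, DMRs 5, 14 and 30, whose fiber levels of 15.1%, 5.88% and 28.1% lie below their epithelial levels.

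The DMRs next to each of the 3 losses, on either side, were gains, as they were for 554 of the 1019 losses in the table (54.4%). A share of gains as high as the 91.2% of cNFI-A makes such neighbours likely however the DMRs are ordered. Nothing is therefore read from the count of enclosed losses or from its difference from the table. With a minimum change of 20 percentage points no loss of cNFI-A lay between gains. Among DMRs at or above the median absolute area statistic of the table, 138, the losses of DMRs 5 and 14 did. DMR 30, the largest loss, fell below that limit with an area statistic of -116. The losses lay in introns, as did all 31 gains. The loss nearest to the low-coordinate end, DMR 5, spans 157 bp from 27405998 to 27406154 and 28 listed CG sites. Epithelial cells had 34.2% there and fiber cells 15.1%, a change of -19.2 percentage points (SE at a single site 2.62). It follows the DMRs that overlap a promoter, of which the nearest, DMR 4, ends 4322 bp before it and gained 14.99 points. The next DMR on the other side, DMR 6, starts 12404 bp further on and gained 11.99 points.

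The loss in DMR 14, from 27441918 to 27442079, was the smallest change of the gene and the only loss in a CpG island. It went from 14.5% in epithelial cells to 5.88% in fiber cells, that is by -8.57 percentage points (SE at a single site 1.70), over 30 listed CG sites. The fiber level was the lowest of the 34 DMRs. Only 1.18% of all losses in the table were smaller. On either side, DMR 13 ends 3872 bp before it and gained 25.5 points, and DMR 15 starts 4896 bp after it and gained 34.0 points.

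DMR 30, from 27605799 to 27606055, held the largest loss. With 16 listed CG sites, this DMR went from 63.0% to 28.1% between epithelial and fiber cells, a change of -34.9 percentage points (SE at a single site 4.80). In epithelial cells it was more methylated than 29 of the other cNFI-A DMRs, and in fiber cells more than only 6 of them. Of all losses in the table, 70.8% were smaller. Its neighbour towards lower coordinates, DMR 29, lies 32049 bp away and made the largest gain of the gene. That DMR, from 27573472 to 27573749, went from 22.2% to 64.5%, a change of 42.4 points (SE at a single site 3.84), and 98.9% of all gains in the table were smaller. The consecutive DMRs 29 and 30 thus nearly exchanged their levels between the cell types. The nearest gain on the other side, DMR 31, starts 12722 bp further on and rose by 11.8 points from 6.59%.

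The losses differed in starting level and in size but were alike in proportion. The fiber level was 44.0% of the epithelial level in DMR 5, 40.7% in DMR 14 and 44.6% in DMR 30. Over the 1019 losses of the table that proportion had a median of 42.9%, with the middle 50% from 34.9% to 53.5%, so the values of cNFI-A are common ones. Losses in DMRs 5 and 14 had 17.8 and 18.5 listed CG sites per 100 bp, denser than 87.1% and 88.6% of all DMRs, whereas DMR 30 had 6.23.

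**Figure D2:**
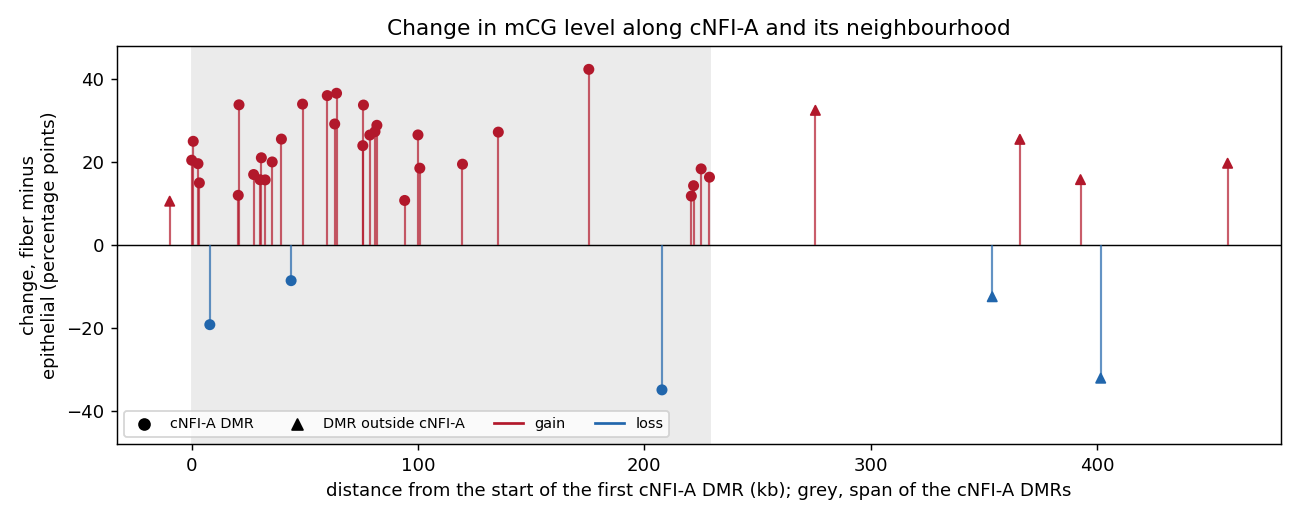
Change in mCG level (fiber minus epithelial, percentage points) against the distance in kb from the start of the first cNFI-A DMR, with circles for the 34 cNFI-A DMRs (grey span, 229 kb) and triangles for 7 DMRs within 300 kb on either side. The 3 losses of cNFI-A sit at 8.01, 43.9 and 208 kb, each between gains.

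Together the DMRs spread over 229 kb, from 27397991 to 27627009, and covered 11753 bp, or 5.13% of that span. No DMR of another gene and none without a gene fell between them. They were unevenly placed, with 20 in the first 76.3 kb, 8 in the next stretch of that length and 6 in the last. The median gap between consecutive DMRs was 3.14 kb, beside 19.0 kb between adjacent DMRs of the whole table. Short gaps go with a high number of DMRs, and spans of other genes with many DMRs are given below. The largest gap was 39.6 kb, between DMRs 28 and 29. The median gain was 22.5 points in the first stretch, 26.5 in the middle and 16.4 in the last, and the 3 stretches overlapped widely. In the last stretch the loss of DMR 30 stood beside only 5 gains, while DMRs 5 and 14 stood among 18 gains in the first.

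Promoter annotation fell on 3 of the DMRs, which also carry an intron line of the same gene and therefore lie inside the transcribed stretch of another transcript. The strand of the gene is not in the table, and none of the 34 DMRs was annotated to an exon, a start site or an end site. With DMR 1 the 3 promoter DMRs formed the largest group of close DMRs, from 27397991 to 27401675, with gaps of 215, 398 and 331 bp. DMR 1 had 24.2% in epithelial cells and 44.6% in fiber cells. It holds the SP2 and MXI1 matches printed above. DMR 2, the longest of the gene with 1699 bp and 172 listed CG sites, had 23.6% and 48.6%, and the authors' area statistic, which sums the evidence over sites, was 1280, the highest of the gene. Next to it, DMR 3 started at 57.1% and reached 76.8%. DMR 4, an island with 23.2 listed sites per 100 bp, went from 62.3% to 77.3%. Across these 4 DMRs the starting level thus rose from near 24% to near 62% within 3685 bp, while the gains stayed between 14.99 and 25.01 points.

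Away from the promoter, DMRs less than 1000 bp apart formed 7 pairs, all of gains. Only DMRs of the same direction were joined, so a pair of a gain and a loss could not be formed. The closest that a loss came to a gain was 3872 bp, and gains were 91.2% of the DMRs of the gene. In some pairs the levels were far apart. DMR 6 had 4.96% in epithelial cells and 17.0% in fiber cells, the lowest starting level of the gene. Only 178 bp away, DMR 7 had 34.7% and 68.5%, a gain of 33.8 points against 11.99. Such a step also separated DMR 25, at 40.4% and 67.0%, from DMR 26, at 67.6% and 86.1%, across a gap of 62 bp. DMR 26 holds the Hes1 match printed above. In DMR 9 the level went from 73.0% to 88.7%, and 535 bp further on, in DMR 10, from 35.4% to 56.5%.

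In the other pairs the fiber levels lay close together. DMRs 17 and 18, a shore and an island over 1721 bp, had 30.4% and 19.6% in epithelial cells and met at 59.6% and 56.2% in fiber cells. DMR 18 had the highest statistic per site of the gene, 13.0, with 96 listed CG sites and a gain of 36.6 points (SE at a single site 2.81). DMRs 19 and 20 started at 46.1% and 37.7% and both ended near 71%, at 70.1% and 71.5%. DMRs 22 and 23 gained 27.3 and 28.9 points from 39.1% and 34.0%, to 66.4% and 62.8%. DMRs 31 and 32, the pair beyond the largest loss, remained low in both cell types, at 6.59% and 8.63% in epithelial cells and 18.4% and 22.9% in fiber cells.

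Of the DMRs that stood alone, 6 gained from a starting level under 30%. DMR 8 went from 29.0% to 46.0% and DMR 11, an island with the TBP match printed above, from 10.7% to 26.4%. DMR 15 rose from 18.5% to 52.4% and DMR 21 from 16.7% to 43.3%. DMR 27, an island in the middle of the span, rose from 22.1% to 41.6%, and the last of the 6 is DMR 29, given above. The others started higher, and all but DMR 24 gained at least 16.4 points. DMRs 13 and 28 rose from 48.2% to 73.8% and from 48.4% to 75.6%, and DMR 16, in a repeat, from 38.5% to 74.5%. DMR 12, also in a repeat, reached 89.5% from 69.5%, the highest fiber level of the gene. DMRs 33 and 34 at the high-coordinate end reached 72.5% from 54.1% and 58.5% from 42.2%. DMR 24 began at 77.3%, the highest starting level, and its gain of 10.8 points to 88.1% was the smallest.

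Gains started from levels between 4.96% and 77.3%. Of the 31 gains, 7 started under 20%, with a median change of 15.7 points, and 12 started from 20% to 40%, with a median of 28.1 points. A further 7 started from 40% to 60% and 5 above 60%, with medians of 24.0 and 15.8 points. Over all gains of the table the medians were 20.6, 24.9, 21.5 and 13.8 points, in the same order of starting level. A level near 100% leaves little room, so the gain was also set against the unmethylated share. In the median gain of cNFI-A, fiber cells kept 56.3% of the unmethylated share of epithelial cells, with a range from 34.3% to 87.4%. Over all 6602 gains the median was 65.5%, with the middle 50% from 55.9% to 74.9%. No test of that difference was made, since the DMRs were selected on the same contrast. Starting levels also differed. Under 20% started 22.6% of the cNFI-A gains and 34.96% of all gains, and above 60% started 16.1% and 11.1%. The medians of the share kept were not matched for starting level, so fuller methylation of cNFI-A is not read from them. Among gains starting under 20% the median change of cNFI-A was the smaller, and in each higher group the larger.

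**Figure D3:**
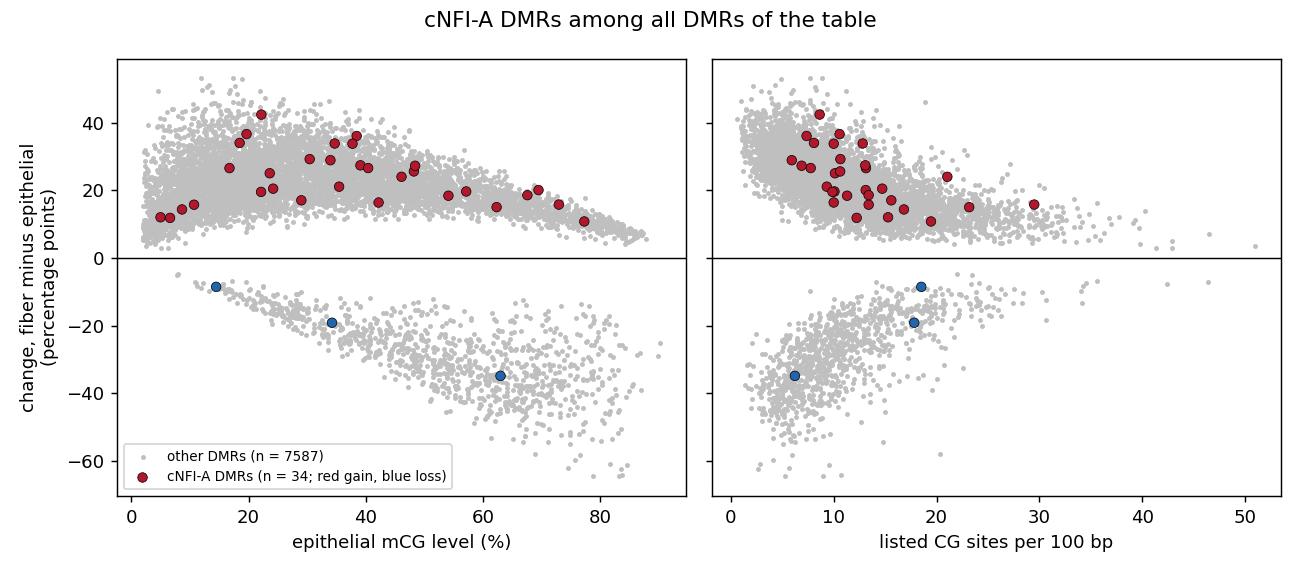
Change in mCG level (percentage points) of the 34 cNFI-A DMRs (red gains, blue losses) and of the 7587 other DMRs (grey) against the epithelial level in % (left) and the count of listed CG sites per 100 bp (right). The cNFI-A points lie within the grey cloud in both panels, and the losses in DMRs 5 and 14 are denser in CG sites than the loss in DMR 30.

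Size of change and CG density went in opposite directions. Across the 31 gains the change fell with the count of listed CG sites per 100 bp, with Pearson's r of -0.54 and Spearman's rho of -0.64. Over all 6602 gains the values were -0.66 and -0.71. The points share the same libraries and the same calling step, and the correlation is given as a description. DMR 9, the densest with 29.5 sites per 100 bp, gained 15.8 points, and DMR 29, with 8.63, gained 42.4. Listed density had a median of 11.8 in cNFI-A and 10.3 in all DMRs.

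CpG islands were overlapped by 8 of the 34 DMRs (23.5%, beside 12.7% of all DMRs and 21.0% of those on chromosome 8). Islands or their shores, the flanking stretches, were overlapped by 12 (35.3%, beside 24.9% of all and 44.5% on chromosome 8), of which 11 were gains and 1 was a loss. The median gain was 19.6 points at islands or shores and 26.04 points in the 20 gains elsewhere. Over the whole table these medians were 18.5 and 22.6 points, a difference in the same direction. The island or shore gains of cNFI-A were not the denser ones. They had a median of 10.6 listed CG sites per 100 bp, beside 12.9 in its gains elsewhere. Over all DMRs, gains and losses together, the median density was 13.4 at islands or shores and 9.33 elsewhere. Introns without promoter or exon held 91.2% of the cNFI-A DMRs, beside 56.0% of all. That share ranked 10 from the highest among the 19 genes with a symbol and at least 15 DMRs.

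Around the gene, 7 DMRs started within 300 kb. The single one on the low-coordinate side, 9.51 kb before DMR 1, lay in a CpG island without a gene annotation, from 27388269 to 27388483, and rose from 10.6% to 21.2%. On the other side the next gene with DMRs was PATJ with 5 DMRs, which codes for a scaffold protein of tight junctions. Its DMR over the promoter and 5′ UTR, from 27673590 to 27674081, rose from 21.0% to 53.4%. The next DMR of PATJ fell from 20.7% to 8.24%, after which came gains of 25.5 and 15.8 points. The last was a loss from 52.7% to 20.6%.

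By number of DMRs cNFI-A was among the leading genes, with 2 genes above it and 1 other gene with the same number, whereas the median of the 3888 genes with a DMR in the promoter or gene body was 1. Among 19 genes with a symbol and at least 15 DMRs, 10 had gains only and 9, cNFI-A among them, had at least 1 loss. The 3 most like cNFI-A, by share of gains, mean change, mean epithelial level and share of DMRs in introns alone, were MSI2, CUX1 and MYO9A, at distances of 0.941, 1.14 and 1.35 in units of the SD over these genes. MSI2 (ENSGALG00000005567), which codes for an RNA-binding protein, had 26 gains and 3 losses with a mean change of 17.4 points. The homeobox gene CUX1 (ENSGALG00000021636) had 14 gains and 1 loss with a mean of 16.5 points. The myosin gene MYO9A (ENSGALG00000033618) had 14 gains and 2 losses with a mean of 16.0 points. The mean of cNFI-A, 19.4 points, was the highest of these 4 but ranked only 10 from the highest among the 19 genes. By median change the order differed, with 21.1 points in MSI2, 21.1 in MYO9A, 20.2 in cNFI-A and 20.1 in CUX1. No test of the differences was made. The DMRs spanned 169 kb in MSI2, 202 kb in CUX1 and 94.3 kb in MYO9A, beside 229 kb in cNFI-A. MACF1, the other gene with 34 DMRs, held them within 107 kb, so close spacing was not particular to cNFI-A.

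**Figure D4:**
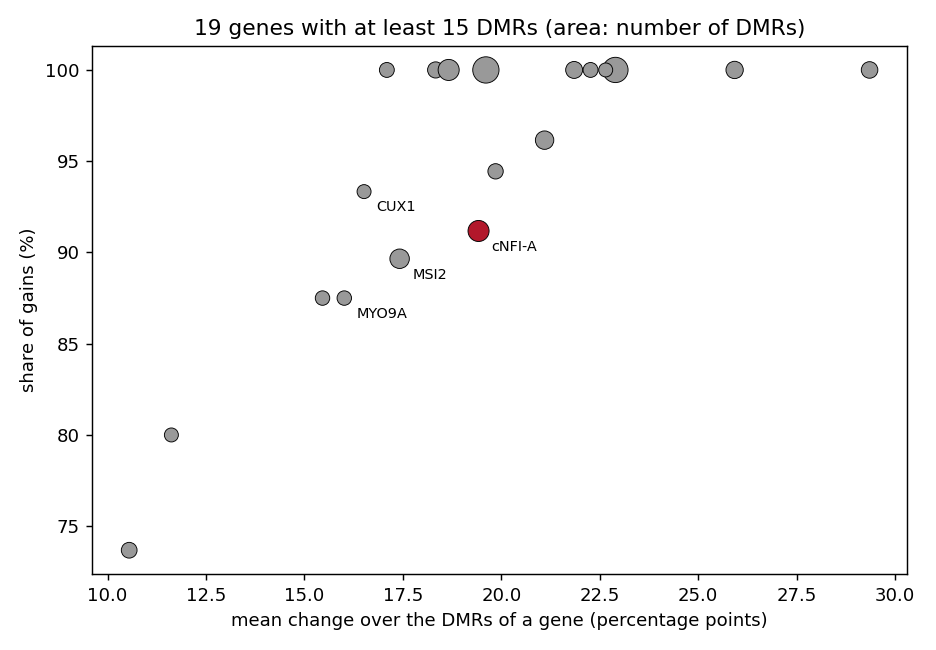
Share of gains (%) against the mean change (percentage points) for the 19 genes with at least 15 DMRs, with the area of a circle in proportion to the number of DMRs and cNFI-A in red. The 10 genes with gains only line up at 100%, and cNFI-A, at 91.2% and 19.4 points, stands near MSI2, CUX1 and MYO9A. Those genes were chosen as alike partly on the plotted measures. RXRA, a gene outside that choice, also stands near, at 94.4% and 19.9 points.

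Other members of the nuclear factor I family had 7 DMRs, all gains, beside a share of gains of 86.6% over all DMRs, so nothing particular to the family is read from this count. NFIC (ENSGALG00000041643, listed as cNFI-C) had 5 gains on chromosome 28 and no loss, with changes from 10.3 to 26.2 points. The DMR over its promoter and intron, from 1226102 to 1226675, rose from 12.8% to 36.3%. NFIB (ENSGALG00000005441) had 2 gains on chromosome Z, from 8.62% to 28.3% in the promoter and from 9.10% to 31.9% in an intron. The promoter DMRs of these relatives started lower than the 3 of cNFI-A, which were at 23.6%, 57.1% and 62.3%. For NFIX no DMR was listed, which leaves smaller differences unseen. Whether the annotation used by the authors carries a gene under that symbol was not checked.

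The last list held 15 regulators, partners and targets of NFIA known from work on the nervous system. DMRs were listed for 6 of them, 4 with gains only, 1 with a loss only and 1 with both, which made 18 gains and 2 losses, a share of gains near the 86.6% of all DMRs. Genes without a DMR are not in the table, so no share of all genes is set beside the 6 of 15. APCDD1, a Wnt inhibitor and shared target of NFIA and SOX9 in mouse, had 2 exon gains of 24.7 and 21.1 points. HES5, a Notch effector, had 2 gains of 24.6 and 35.9 points. The receptor genes NOTCH2 and NOTCH1 had 6 gains and 7 gains, and NOTCH1 also had 1 loss, with a change of -29.7 points. ATF3, which codes for a stress-responsive transcription factor, had 1 gain of 18.5 points. The loss without gains was in an intron of SLC1A2, which codes for a glutamate transporter of astrocytes, from 83.2% to 38.2%. No DMR was listed under SOX9, POU3F2, MMD2, ZCCHC24, HES1, RBPJ, GFAP, SLC1A3 or EZH2.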

How the data were processed

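Per the labels and the study's methods, the authors called bases with CASAVA, trimmed bisulfite reads with Trimmomatic, aligned them to galGal6 with Bismark and called DMRs with DSS, which smooths neighbouring CG sites and tests them in a beta-binomial model. Versions are not given in the sources used here. The deposited mCG levels are a fraction per DMR and cell type, pooled over replicates and here converted to percent. Smoothing makes close sites alike, and only regions past a p threshold are listed. Also deposited is the area statistic, a score in which the Wald statistics of a region's listed sites are added up. A deposited column of the authors' differences was not used. Direction was taken from the mean levels, and the resulting counts of gains and losses differ slightly from those the paper reports.

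The 13180 lines of the table were joined to 7621 DMRs, of which 34 carry the symbol cNFI-A on 37 lines. Values were described by counts, ranges, means and medians, without tests. Members and lists were chosen with earlier results of these data known. Named genes are cNFI-A, its family, a list of NFIA partners, genes within 300 kb and the 3 most alike over 4 values. RefSeq (GRCg7b) served for checking gene symbols of the lists only. The functions that join DMRs and count enclosed losses were tested on simulated data. Calculations used Python 3.11.15, NumPy 2.4.6, pandas 2.3.3, SciPy 1.17.1 and matplotlib 3.10.9. Alternatives changed the matching of lines, the annotations counted, the minimum change or statistic, the joining of close DMRs and the weighting. The gene of 1 neighbouring DMR is not reported here.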

Additional observations from a re-analysis of the deposited data

How the results depend on the processing

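The share of gains in cNFI-A ran from 87.5% to 94.7%. The lowest came with DMRs of the same direction under 1000 bp apart joined, and the highest with a minimum change of 20 percentage points. Matching lines by gene identifier, keeping promoter and gene body lines only, and leaving out DMRs shared with another gene each returned the same 34 DMRs. Weighting by CG sites or by length moved the mean change to 21.3 and 22.7 points. The minimum change left 19 DMRs and raised the mean to 25.4 and the median to 27.2 points by construction. It also brought the losses enclosed by gains from 3 to 0, because DMRs 5 and 14 and all gains beyond DMR 30 are smaller than 20 points. With DMRs at or above the median absolute area statistic of the table, 2 enclosed losses, DMRs 5 and 14, were counted among 24 DMRs. No paired analysis was possible because the table holds 1 pooled mean per cell type, and for the same reason no replicate could be left out. Depth per DMR is unknown, so no change, whether small as in DMR 14 or large, could be given an interval.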
